A study of Mus musculus with 2 samples.

Results

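Complex I of the mitochondrial respiratory chain was represented on the arrays by 44 genes whose symbols in the platform annotation begin with Ndufa, Ndufb, Ndufc, Ndufs or Ndufv, of 18194 genes that a probe set names alone. These genes were taken by symbol and not by their values, although earlier results of these data were known when complex I was chosen. They comprise structural subunits, the Ndufaf assembly factors, and Ndufa4 and Ndufa4l2. They are covered by 88 probe sets, each a set of short oligonucleotides for the same transcript. The samples were skeletal muscle of female RXRγ mice at 4 months of age, which carry RXRγ under the human alpha-actin promoter, and of female non-transgenic control mice of the same age, both on the C57BL6 strain. The transgenic animals came from line 4-3 alone. Within each genotype RNA was pooled, from 3 animals according to the sample labels and from 5 according to the series design, and 1 Affymetrix MG430 array was hybridized per pool. With 1 array per genotype a difference has no replicate check and cannot be tested, and the few arrays limit its precision. In whole muscle, fewer cells of a type and less RNA per cell cannot be told apart.

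Complex I oxidizes NADH in the mitochondrial matrix, passes the electrons along a flavin and a chain of iron-sulfur clusters to ubiquinone, and uses the energy to pump protons across the inner membrane. It is L-shaped. The matrix arm holds the NADH-oxidizing N module and the quinone-reducing Q module, and the membrane arm holds the proton pumps, whose core subunits are encoded by mitochondrial DNA. Around the conserved core lie many accessory subunits, and assembly factors build the complex without remaining in it. Skeletal muscle holds much complex I, and slow and oxidative fibres hold more mitochondria than glycolytic fibres.

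The transgene transcript Rxrg had a signal of 9172.1 in RXRγ mice, against 334.5 in control mice (log2 ratio 4.78). All 9 skeletal muscle markers listed, such as Acta1 and Ckm, were above 250 on the brighter array, while the highest signal among the cardiac markers was 52.0 in RXRγ mice and 33.3 in control mice. A measure of RNA degradation, the signal at the 3′ end of Gapdh over that at its 5′ end, was 0.797 in RXRγ mice and 0.815 in control mice, and that of Actb was 1.054 in RXRγ mice and 0.956 in control mice. A gene was taken as measured when a probe set exceeded a signal of 250 on the brighter array, and its value is the mean log2 ratio of RXRγ over control mice over these probe sets. It was counted as changed in either direction from 0.4 on the log2 scale, the size of change used in the Methods. By these rules 3780 genes were measured, with a median log2 ratio of -0.04.

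Of the 44 complex I genes, 39 were measured, on 70 probe sets. In RXRγ mice 4 of them were lower, against 20.1% of all genes, and 0 were higher, against 16.8% of all genes. The 4 were the assembly factor genes Ndufaf4 and Ndufaf6 and the accessory subunit genes Ndufa8 and Ndufv3. The median log2 ratio of the 39 was -0.08, and 25 lay below 0, against 53.5% of all genes. Values ran from -1.29 for Ndufaf4 to 0.30 for Ndufa10. The sign of the median held under the other scalings (-0.18 under median scaling, -0.05 under quantile normalization and -0.02 under intensity-dependent centring), and median scaling moved the median of all genes by -0.11.

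**Figure D1:**
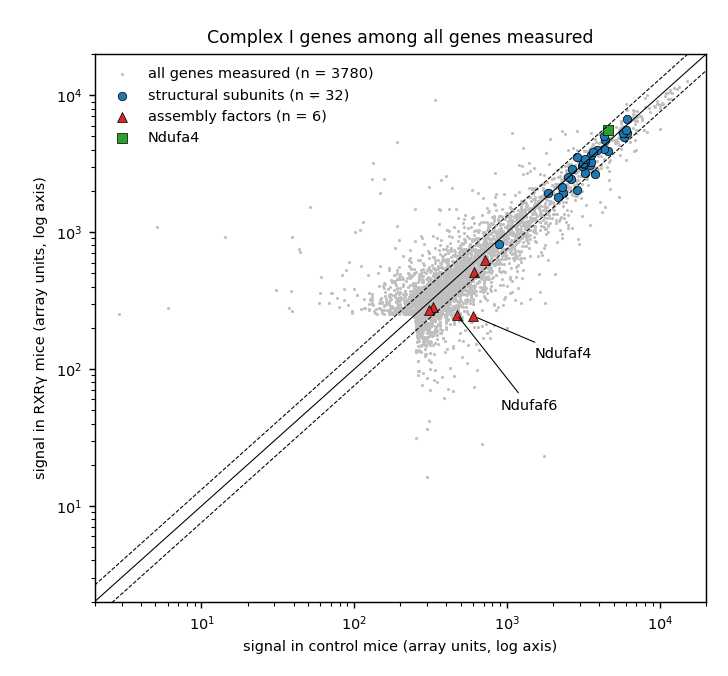
Signal in RXRγ mice (vertical) against control mice (horizontal), both in array units on log axes, 1 point per gene. Blue circles are the 32 structural subunits, red triangles the 6 assembly factors, the green square Ndufa4 and grey dots all 3780 genes; the solid line marks equal signals and the dashed lines a log2 ratio of 0.4 in either direction, below the lower of which lie Ndufaf4, Ndufaf6, Ndufa8 and Ndufv3.

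The structural subunits differed little between the arrays. Of 32 measured, 2 were lower and 0 were higher, with a median log2 ratio of -0.05. In 30 of the 32 the log2 ratio was smaller than 0.3 in either direction, against 51.8% of all genes. The subunits are bright, and of the 31 with a mean signal above 1000 in either genotype 29 were within 0.3, against 52.8% of the 903 genes this bright, and 2 were lower and 0 higher, against 22.9% and 14.4%. The sign of their median depended on the scaling, with -0.15 under median scaling, -0.03 under quantile normalization and 0.01 under intensity-dependent centring. The counts of lower and higher subunits were 2 and 0 under each of these, against 16.6% to 26.6% and 13.2% to 19.2% of all genes.

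The probe sets of a gene gave the only measure of spread. Of the 39 genes, 19 had more than 1 probe set above 250, and the median span of log2 ratios between probe sets of such a gene was 0.11, against 0.20 over the 1213 genes of the arrays with several. The within-gene standard deviation over probe sets, pooled, was 0.10 for complex I genes and 0.22 for all genes. Probe sets of a gene share the array and the RNA pool, so this spread leaves out the variation between animals. Of the 32 structural subunits 23 had a log2 ratio within 0.2, near this spread among all genes, against 36.3% of all genes.

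The core subunits, which carry out the chemistry of the enzyme, lay in a narrow range. The log2 ratios of the 6 measured ran from -0.17 to 0.11, with a median of 0.04 that became -0.06 under median scaling. Ndufs1, which carries iron-sulfur clusters in the N module, had a signal of 2870.9 in RXRγ mice, against 2657.3 in control mice (log2 ratio 0.11). Ndufv1, which binds the flavin and NADH, averaged 2464.8 in RXRγ mice and 2606.8 in control mice over 3 probe sets (log2 ratio -0.08). Both are members of the N module, and neither approached 0.4. In the Q module Ndufs7, the subunit with the last iron-sulfur cluster before ubiquinone, averaged 3112.7 in RXRγ mice and 3494.7 in control mice (log2 ratio -0.17). Ndufs8, also an iron-sulfur subunit, averaged 2535.6 in RXRγ mice and 2514.5 in control mice, and its 5 probe sets ran from -0.04 to 0.11. Ndufs3 and Ndufv2 had log2 ratios of 0.05 and 0.07. The mitochondrially encoded subunits were not analysed here.

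In the rest of the matrix arm 1 gene was lower. Ndufv3, an accessory subunit at the NADH-binding end, had a signal of 2658.8 in RXRγ mice, against 3739.9 in control mice, a log2 ratio of -0.49 on its only probe set. The other measured genes of the matrix arm did not share this size of difference. Ndufa12 averaged 4997.0 in RXRγ mice and 5845.7 in control mice, with a log2 ratio of -0.23 and probe sets from -0.38 to -0.12. Ndufa5, of the Q module, averaged 2705.8 in RXRγ mice and 3241.0 in control mice (log2 ratio -0.26), and both of its probe sets lay below 0. Ndufs4, which in humans is a gene of Leigh syndrome, was the only complex I gene whose probe sets differed among themselves by over 0.4. In RXRγ mice they had 265.5, 264.1 and 1938.4, and in control mice, in the same order, 310.5, 227.1 and 2112.6. The brightest of the 3 had a log2 ratio of -0.12, and the probe set that went the other way was under 250 in control mice. The remaining matrix arm genes Ndufa2, Ndufa6, Ndufa7 and Ndufa9 lay between -0.11 and 0.08.

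In the membrane arm the lower gene was Ndufa8, which encodes a cysteine-rich subunit on the intermembrane space side. Its signal was 2020.3 in RXRγ mice and 2859.8 in control mice, a log2 ratio of -0.50 on its only probe set. The proximal part of the arm also held the complex I gene with the highest ratio, Ndufa10, a subunit related to nucleoside kinases, at 3527.6 in RXRγ mice and 2866.8 in control mice (log2 ratio 0.30). The 6 others of the 8 measured proximal genes lay between -0.19 for Ndufa3 and 0.07 for Ndufc2. Among them Ndufa13, also known as the cell death regulator GRIM-19, had 5269.2 in RXRγ mice and 5693.9 in control mice, and Ndufs5 had 3237.3 in RXRγ mice and 3230.2 in control mice. In the distal part 0 of 10 genes passed 0.4. The highest there was Ndufb8, at 5029.6 in RXRγ mice and 4268.8 in control mice (log2 ratio 0.24), and the lowest was Ndufb3, at 1927.3 in RXRγ mice and 2304.8 in control mice (log2 ratio -0.26). Ndufb9, which averaged 6761.2 in RXRγ mice and 6093.2 in control mice, had a log2 ratio of 0.15. Ndufb7 and Ndufb11 were the next lowest, with -0.23 and -0.22 and with all of their probe sets below 0. Ndufab1, which is also the acyl carrier protein of mitochondrial fatty acid synthesis, averaged 1936.2 in RXRγ mice and 1860.2 in control mice, and its 2 probe sets had log2 ratios of 0.08 and -0.18. Ndufa4, first isolated with complex I and later assigned to cytochrome c oxidase, had 5549.3 in RXRγ mice and 4586.4 in control mice (log2 ratio 0.27).

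**Figure D2:**
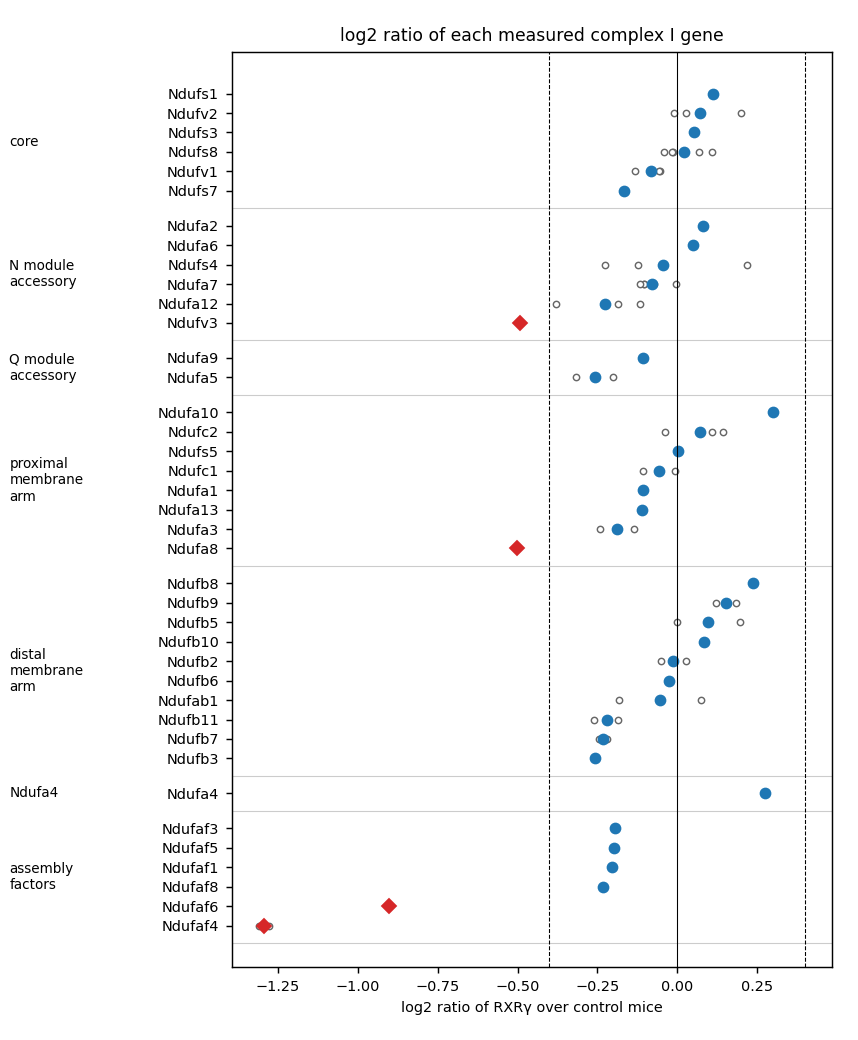
log2 ratio of RXRγ over control mice (horizontal) for the 39 measured complex I genes, grouped by their place in the complex. Filled symbols are gene means, red diamonds those lower by at least 0.4, open circles the single probe sets of genes with several, and the dashed lines are at 0.4 up and down; the structural subunits lie between -0.50 and 0.30, while Ndufaf6 and Ndufaf4 lie at -0.90 and -1.29.

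Of the 6 assembly factors measured, 2 were lower, all 6 had a log2 ratio below 0 and the median was -0.22, against -0.05 for the structural subunits. This difference between the groups was not tested. Among all genes with a mean signal up to 1000 in both genotypes, where these factors lie, 19.2% were lower and 52.1% lay below 0. Under each of the 3 other scalings 2 were lower and 6 lay below 0, with medians from -0.32 to -0.19.

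Ndufaf4, which with Ndufaf3 acts on an early intermediate of the Q module, had the largest difference of all complex I genes. Its brighter probe set measured 259.0 in RXRγ mice and 628.6 in control mice, and the other had 229.3 in RXRγ mice and 568.4 in control mice. The log2 ratios were -1.28 and -1.31, a 2.45-fold lower mean, and they differed from each other by 0.03. Counting all measured genes, 88 of 3780 had a ratio as low as this or lower. Its partner Ndufaf3 had 268.2 in RXRγ mice and 307.1 in control mice (log2 ratio -0.20). Ndufaf6, a protein related to phytoene synthases that is needed early in assembly, had 249.9 in RXRγ mice and 467.5 in control mice (log2 ratio -0.90, 1.87-fold lower) on its only probe set. A log2 ratio of -0.9 or below was found in 5.0% of all genes. Both signals in RXRγ mice lay above 150, the level under which the Methods do not count a gene as substantially expressed. However, Ndufaf6 and the dimmer probe set of Ndufaf4 passed the filter of 250 through control mice alone, where they are higher. With both arrays required to exceed 250, Ndufaf4 had a log2 ratio of -1.28 on its brighter probe set and Ndufaf6 was not measured. By that filter 16.4% of all genes were lower.

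The other assembly factors lay in a narrow range. Ndufaf1, which with Ecsit and Acad9 belongs to the complex that assembles the membrane arm, had 624.3 in RXRγ mice and 719.6 in control mice (log2 ratio -0.20). Ndufaf5, which hydroxylates Ndufs7, had 282.8 in RXRγ mice and 324.7 in control mice (log2 ratio -0.20). Ndufaf8, which works with Ndufaf5, had 514.8 in RXRγ mice and 604.9 in control mice (log2 ratio -0.23). These differences, and that of Ndufaf3, are near the pooled spread of probe sets within a gene over all genes (0.22) and larger than that over complex I genes (0.10). Ndufaf2, which acts late in assembly, was under 250 on both arrays, at 147.4 in RXRγ mice and 161.0 in control mice, as was Ndufaf7, a methyltransferase, at 104.5 in RXRγ mice and 85.6 in control mice.

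**Figure D3:**
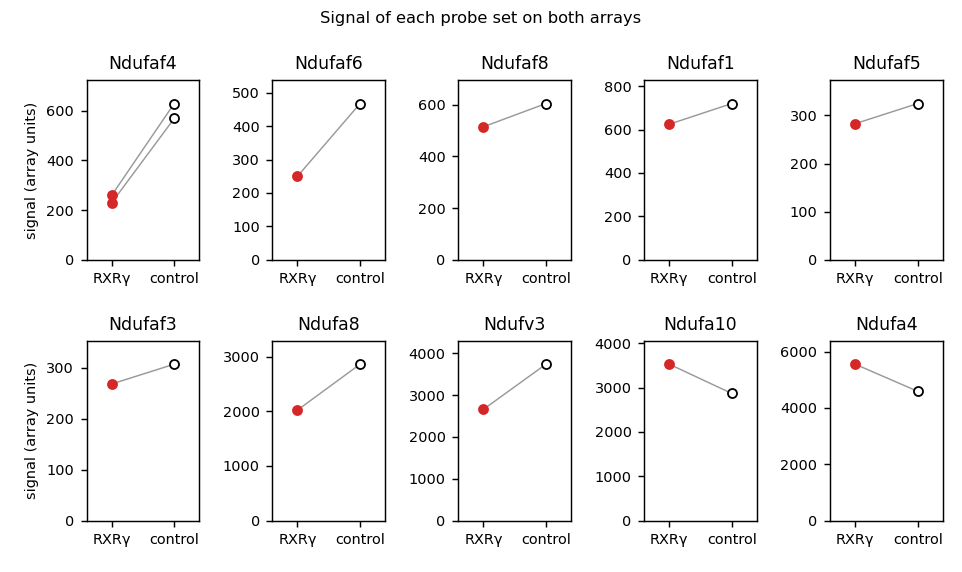
Signal in array units on the array of RXRγ mice (filled red circles, left) and of control mice (open circles, right) for the 6 measured assembly factors and for Ndufa8, Ndufv3, Ndufa10 and Ndufa4. Each line joins the values of a probe set, vertical axes start at 0 and differ between panels; both probe sets of Ndufaf4 lie at 259.0 or below in RXRγ mice and at 568.4 or above in control mice.

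Assembly factors with other names were described from a list of 12, of which 3 were measured. Ecsit, the partner of Ndufaf1, which also acts in Toll receptor signalling, was lower, at 286.7 in RXRγ mice and 491.1 in control mice (log2 ratio -0.78). Dmac1, a factor of the distal membrane arm, had a log2 ratio of -0.03, and Tmem70, which acts in the assembly of complex V and complex I, had one of 0.37, at 1901.7 in RXRγ mice and 1467.0 in control mice. Acad9 was under 250 on both arrays, at 137.7 in RXRγ mice and 169.2 in control mice. Thus 1 of the 3 was lower, against 20.1% of all genes, and the highest and the lowest lay on either side of 0.

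The promoters of 39 of the 44 genes were found in RefSeq (GRCm38.p6), 250 bases before to 50 after the start of the transcript. They were searched on both strands for motifs of factors known to act on mitochondrial genes. The NRF1 motif, GCGC and TGCGC with any base between them, was found in 7 of the 39, against 5.19% of the 27025 genes in the table, and the ETS motif CCGGAAG in 6, against 9.93%. The nuclear receptor core motif AGGTCA was found in 8, against 18.1%. Its extended form TNAAGGTCA, which contains AGGTCA and is bound by estrogen-related receptors, was found in Ndufb4 only, against 1.43%, and the direct repeat of AGGTCA with 1 base between the copies, a site of RXR with PPAR, in 0, against 0.0481%. Promoters are shown for Ndufaf4 and Ndufa8, the lower genes with an NRF1 match, and for Ndufs5, which has the same kinds of match as Ndufaf4 and a log2 ratio of 0.00. The 250 bases before the start are printed 5′ to 3′ along the gene, with matches to NRF1 and to AGGTCA in capitals; the AGGTCA of Ndufaf4 begins at position 23 after its start and is not in the printed stretch.
Ndufaf4, chr4:24897833-24898082, strand +: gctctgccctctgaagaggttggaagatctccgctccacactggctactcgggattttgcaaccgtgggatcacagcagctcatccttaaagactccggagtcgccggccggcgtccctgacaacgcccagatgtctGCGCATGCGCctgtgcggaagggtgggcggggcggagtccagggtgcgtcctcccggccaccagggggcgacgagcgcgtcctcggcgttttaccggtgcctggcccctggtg
Ndufa8, chr2:36049339-36049588, strand -: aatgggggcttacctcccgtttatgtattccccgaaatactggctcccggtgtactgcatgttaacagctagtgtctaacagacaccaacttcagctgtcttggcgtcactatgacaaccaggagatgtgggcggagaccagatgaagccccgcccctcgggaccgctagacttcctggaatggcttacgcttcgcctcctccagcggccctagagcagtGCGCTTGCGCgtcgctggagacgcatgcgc
Ndufs5, chr4:123718187-123718436, strand -: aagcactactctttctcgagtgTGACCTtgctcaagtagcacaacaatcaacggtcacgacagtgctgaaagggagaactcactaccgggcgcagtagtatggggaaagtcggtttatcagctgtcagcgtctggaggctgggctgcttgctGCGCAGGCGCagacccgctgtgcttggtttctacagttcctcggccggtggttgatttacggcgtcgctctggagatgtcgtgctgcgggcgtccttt
Both stretches of capitals in Ndufs5 match on the other strand, where TGACCT reads as AGGTCA. The NRF1 match begins 113 bases before the start in Ndufaf4, 30 before it in Ndufa8 and 98 before it in Ndufs5. Promoters with the same motifs belonged to genes that differed in their log2 ratio. A match is a sequence of letters only, and binding was not measured.

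Most genes of the other respiratory complexes were also within 0.3, against 51.8% of all genes. Among the genes of these complexes 1 was lower, against 20.1% of all genes, and 3 were higher, against 16.8%. Of 39 measured genes of complexes II to V, 35 were within 0.3, the same number as among the 39 complex I genes, and their median log2 ratio was 0.01, with values from -0.55 to 0.86. Lower was Cox8b (4689.0 in RXRγ mice and 6851.1 in control mice), and higher were Cox8a, Atp5d and Atpif1, with log2 ratios of 0.86, 0.49 and 0.55. Whether complex I differs from these was not tested, since there are no replicates.

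**Figure D4:**
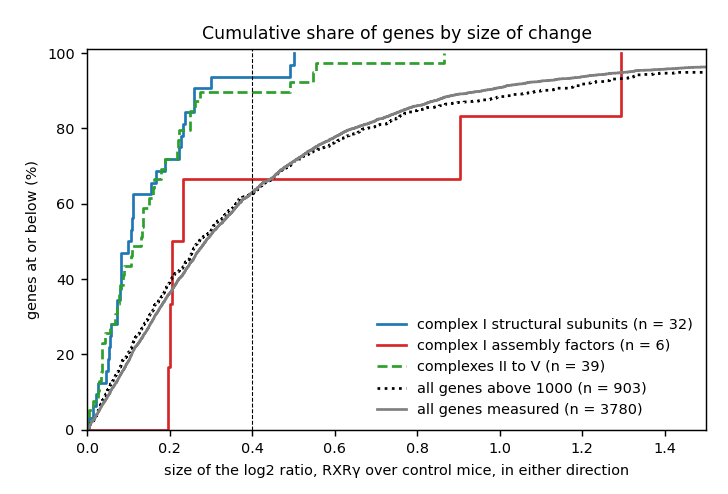
Share of genes in percent (vertical) whose log2 ratio of RXRγ over control mice is at or below a given size in either direction (horizontal), as steps for each group of genes. The steps of the 32 structural subunits and of the 39 genes of complexes II to V lie above those of all genes measured and of genes above 1000 on the array at a size of 0.3, and the dashed line marks 0.4.

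Regulators of mitochondrial genes were described from a list of 15, of which 7 were measured. In RXRγ mice 4 were higher, against 16.8% of all genes, and 1 was lower, against 20.1%, with a median log2 ratio of 0.44. Tfam, which packages and transcribes mitochondrial DNA, had 864.8 in RXRγ mice and 476.7 in control mice (log2 ratio 0.86). Esrra, Ppargc1a and Gabpa, which act on promoters of respiratory chain genes, had log2 ratios of 0.46, 0.44 and 0.44. Under median scaling only 1 of the 4 stayed higher. Ppargc1a averaged 302.0 in RXRγ mice and 223.8 in control mice, and Gabpa had 345.4 in RXRγ mice and 255.3 in control mice. In control mice both thus lay near the signal filter. The median of the list depended on this filter. It was 0.10 over 9 genes with a signal above 150 required on the brighter array, and 0.03 without a filter. With both arrays required to pass the main filter, it was 0.36 over 7 genes. Tfb2m, a cofactor of mitochondrial transcription, was lower, at 599.4 in RXRγ mice and 891.8 in control mice.

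All 8 slow fibre genes listed were lower, against 20.1% of all genes (median log2 ratio -1.64). Some passed the filter through control mice alone, where they are higher. Myl3 averaged 23.2 in RXRγ mice and 1746.6 in control mice, and Tnni1 had 163.6 in RXRγ mice and 486.2 in control mice. With both arrays required to exceed 250, 5 were measured, with a median of -1.55. The probe sets of Tpm3 ran from -1.14 to 0.06. All 10 fast fibre genes had a log2 ratio below 0, against 53.5% of all genes and 523 of the 903 genes above 1000. Under quantile normalization 9 lay below 0, against 51.5% of all genes. Their median was -0.22 and ran from -0.32 to -0.09 under the other scalings. Of these 10, 2 were lower (1 to 3 under the other scalings), a share close to that of all genes, among them Myh2, the myosin of fast oxidative fibres, at 5703.3 in RXRγ mice and 9977.6 in control mice (log2 ratio -0.81). Among the complex I genes only Ndufaf4 and Ndufaf6 had a log2 ratio below that of Myh2. The 9 skeletal muscle markers, several of which are also fast fibre genes, all lay below 0, against 53.5% of all genes. Their median was -0.23 and ran from -0.33 to -0.10 under the other scalings. Of these 9 markers 2 were lower, a share close to the 20.1% of all genes. They were Myh4, whose 2 probe sets had log2 ratios of -0.77 and -0.06, and Ckm, whose 2 had -1.39 and -0.11. Of the other cells in muscle, the 5 fibroblast markers had a median of 0.15, the adipocyte markers Adipoq and Retn had log2 ratios of 0.17 and 0.22, and the macrophage marker Csf1r had one of 0.25. The Schwann cell markers Mbp and Pmp22 had 0.09 and 0.35. On either array 0 of 5 endothelial markers reached 250, nor did the 3 of 5 blood markers that have a probe set. The part of fibre type and cell composition in the values of the complex I genes was not tested.

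**Figure D5:**
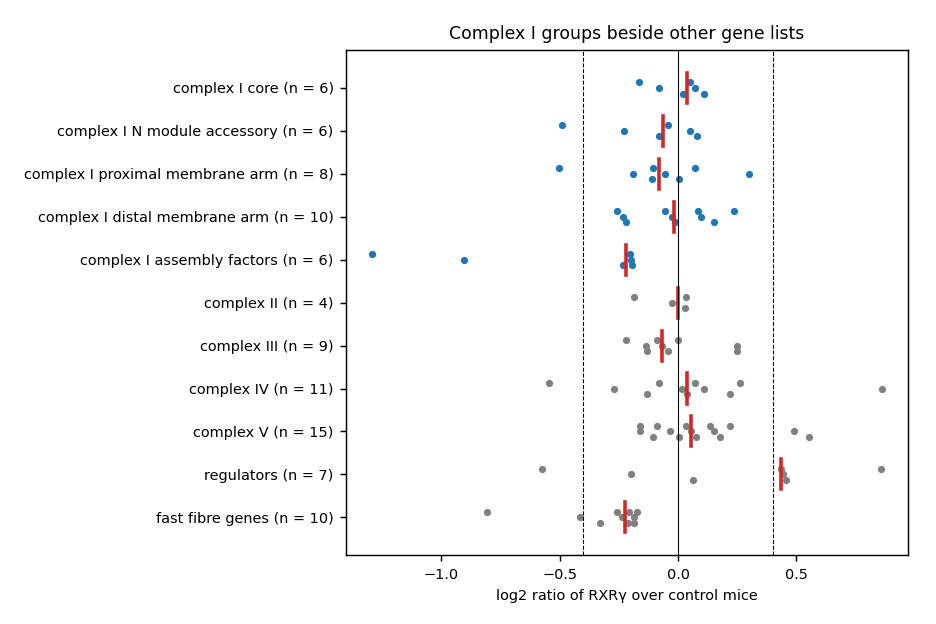
log2 ratio of RXRγ over control mice (horizontal) for the measured genes of each list, 1 point per gene, offset vertically only for legibility. Complex I groups are blue and other lists grey, with a red bar at the median, and the dashed lines are at a log2 ratio of 0.4 up and down; the median of the regulators is 0.44, that of the fast fibre genes -0.22 and that of the complex I assembly factors -0.22.

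The 5 complex I genes that were not measured had signals of at most 161.0 on either array. Besides Ndufaf2 and Ndufaf7, they were Ndufa4l2, a relative of Ndufa4 that is induced in low oxygen (56.6 in RXRγ mice and 55.8 in control mice), Ndufb1 (142.9 in RXRγ mice and 117.9 in control mice) and Ndufb4 (19.8 in RXRγ mice and 8.4 in control mice). The probe set of Ndufb4 that names it alone is not its brightest, since others name it together with related genes. No fold is given for these 5 genes.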

How the data were processed

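The authors pooled RNA within each genotype and made the deposited intensity values with the Affymetrix Gene Chip software, from the brightness of matched over mismatched oligonucleotides. The values are linear, and both arrays have the same trimmed mean of 100.0 (2% left out at either end). How they were scaled to it was not stated, and present calls were not analysed.

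The platform annotation named the probe sets. It gives a single gene for 34958 of 45101 probe sets, several for 932, and does not list 9211. Ratios were taken without a pseudocount. The complex I genes and all lists were chosen with earlier results of these data known. Values are given for genes past 0.4, the 5 highest and 5 lowest, those with discordant probe sets, assembly factors and up to 3 members of each list. Further genes, and the promoters shown, were chosen after their values were seen.

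Alternatives were 3 other scalings (loess with limma 3.58.1 in R 4.3.3, fitted on probe sets above 250), a pseudocount of 32, a floor of 150, other signal filters, other choices of probe sets and thresholds of 0.2 and 1. The steps were tested on simulated data. Python 3.11.15, pandas 2.3.3 and matplotlib 3.10.9 were used.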

Additional observations from a re-analysis of the deposited data

Results flagged for a closer look

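A probe set that names Ndufa11b together with Ndufa11, and was therefore left out of the gene values, had a signal of 2628.1 in RXRγ mice, against 1969.5 in control mice, a log2 ratio of 0.42. It stood out because a signal outside the main measurement lay above its level in control mice by more than 0.4, which 0 of the 39 measured complex I genes did. The value is close to that limit, which 16.8% of all genes passed upwards. A probe set shared by Ndufb4 and its relatives, also left out, differed more and was lower, with a log2 ratio of -0.52. Ndufa11 encodes a membrane arm subunit, and transcripts of the related gene cannot be told apart from it on this probe set.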

How the results depend on the processing

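The median log2 ratio of the complex I genes lay between -0.18 (median scaling) and -0.02 (intensity-dependent centring) under the alternatives, and 34 of the 39 genes lay below 0 under the first of these, against 63.9% of all genes, and 20 under the second, which centres all genes near 0. At a threshold of 0.2, 11 genes were lower and 3 higher, against 34.4% and 29.2% of all genes, and at a threshold of 1, 1 gene was lower, against 4.1%. With a signal above 1000 required, which leaves out the assembly factors, 2 of 33 genes were lower, against 21.8% of all genes. Without a filter 2 of 44 were higher, against 28.6%, on values that include signals far below 150. Counting probe sets, 49 of 70 lay below 0, against 53.8% of all probe sets. Of 455 values of single genes under the alternatives 450 moved by less than the pooled spread of probe sets within a gene over all genes (0.22), and 0 lower genes changed direction. Where measured, Ndufaf4 stayed between -1.39 and -1.19, Ndufaf6 between -1.0 and -0.83, Ndufa8 between -0.60 and -0.44 and Ndufv3 between -0.59 and -0.43. Ndufaf6 could not be measured where both arrays had to exceed 250, or the brighter one 500 or 1000. Then 3 of 38, 3 of 36 and 2 of 33 genes were lower, against 16.4%, 21.2% and 21.8% of all genes. Ndufaf4 could not be measured above 1000. No paired analysis was possible because there is 1 array per genotype.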

Other observations

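Probe sets that name several genes gave values for subunits that have no gene value above 250. The 2 bright probe sets shared by Ndufb4, Ndufb4b and Ndufb4c, a distal membrane arm subunit and its relatives, had 3801.0 in RXRγ mice against 4712.4 in control mice (log2 ratio -0.31) and 2672.1 in RXRγ mice against 3836.8 in control mice (log2 ratio -0.52). The probe set shared by Ndufs6 and Ndufs6b, where Ndufs6 is a zinc-binding subunit of the N module, had 2540.7 in RXRγ mice and 3131.3 in control mice (log2 ratio -0.30). Those shared with the pseudogenes of Ndufs5 and Ndufab1 had log2 ratios of -0.04 and 0.08.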
